A study of Solanum lycopersicum with 6 samples.

Results

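Flowers are laid out by MADS-box transcription factors that act in combination, and this account follows the 6 tomato genes that carry the B and C functions. The members were named by identifier: the B class genes TPI (Solyc06g059970), Solyc08g067230, TAP3 (Solyc04g081000) and TM6 (Solyc02g084630), and the C class genes TAG1 (Solyc02g071730) and TAGL1 (Solyc07g055920). They are 6 of the 25440 loci in the expression table, and all 6 have values in it. Axillary buds, the side shoots in the leaf axils of tomato (Solanum lycopersicum), were collected from greenhouse plants and profiled by RNA sequencing. One group is the cultivar that the labels call monomaker, whose libraries are titled WT, and the other is the cultivar called compound raceme, whose libraries are titled BJ, with 3 libraries each. The labels give no plant age, no treatment and no genetic lesion for either cultivar, and nothing in them ties a library to a plant of its own. The p-values therefore rest on the spread among libraries, which could be technical.

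In flowers, B class factors work as pairs, one partner from the GLOBOSA (PISTILLATA) lineage and one from the DEFICIENS (APETALA3) lineage, and specify petals and stamens. C class factors of the AGAMOUS family specify stamens and carpels and end the activity of the floral meristem. Both act in complexes with SEPALLATA, or E class, factors, and in Arabidopsis the B class gene APETALA3 is switched on by LEAFY together with the F-box protein UFO, whose tomato counterparts are FA and AN.

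Of the 4 B class genes, 3 had values near 0 in compound raceme buds and values of 1.2 to 4.59 FPKM in monomaker buds, while the other, TM6, was the most abundant member and had higher values in compound raceme. The 2 C class genes had overlapping values in the cultivars. FPKM scales fragments to the length of the transcript and to the total of the library, so levels of different genes can be set side by side. Levels below are in FPKM, as mean ± SD over 3 libraries. Differences are log2 fold changes of log2(FPKM + 1), compound raceme minus monomaker, from limma with Benjamini-Hochberg adjustment over the 18802 loci whose mean reached 1 FPKM. Calls were made below an adjusted p of 0.05, which 614 loci (3.27%) passed. Read counts are not in the table, so the depth of each library is unknown and a value of 0 is given only as listed.

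**Figure D1:**
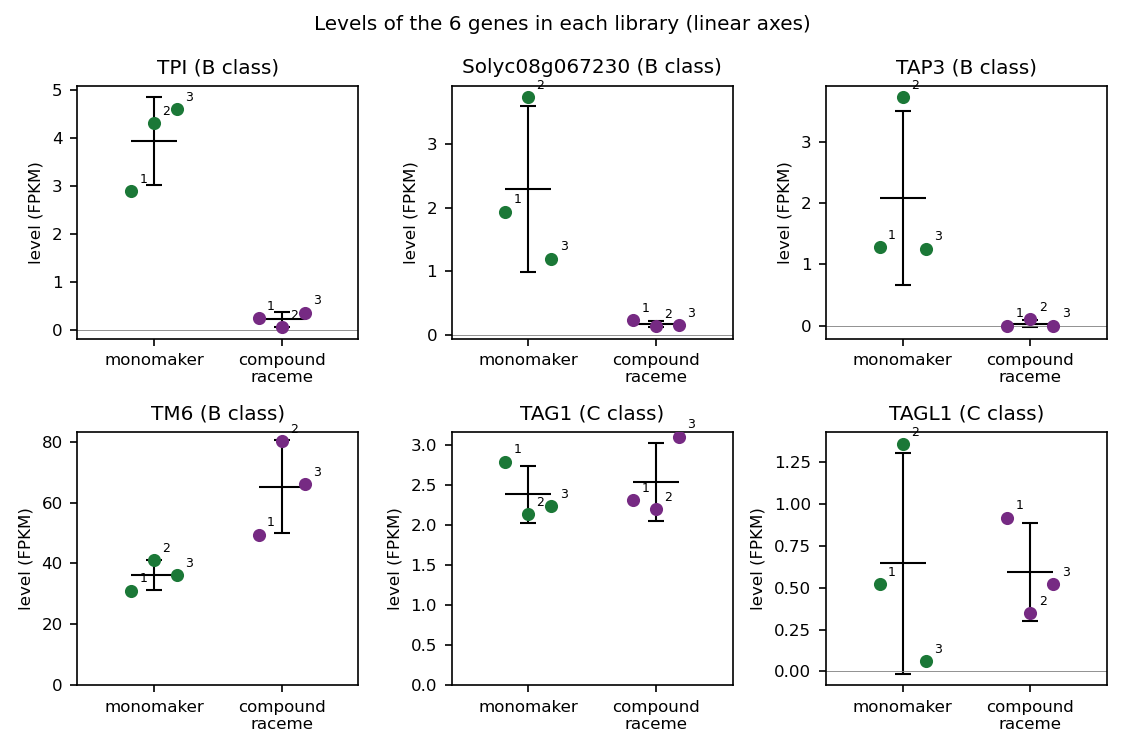
Level in FPKM (linear axis) of each gene in the 3 monomaker and the 3 compound raceme libraries. Points are libraries with their numbers, the horizontal mark is the mean and the bar is the SD (n = 3). TPI, Solyc08g067230 and TAP3 lie at 0.36 FPKM or below in compound raceme, TM6 lies at 49.5 to 80.1 FPKM there, and TAG1 and TAGL1 overlap.

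The GLOBOSA-lineage genes come first. TPI (chromosome 6, 38012678 to 38015713 on the minus strand of SL3.0), one of a pair of GLOBOSA-like genes, measured 2.89, 4.30 and 4.59 FPKM in monomaker 1 to 3. Compound raceme 1 to 3 gave 0.24, 0.06 and 0.36 FPKM. All 3 monomaker libraries were above all 3 compound raceme libraries, and the lowest monomaker value was several times the highest compound raceme value. TPI fell from 3.93 ± 0.909 to 0.22 ± 0.151 FPKM, and its log2 fold change was -2.0 (SE 0.23, 95% interval -2.56 to -1.45, adjusted p = 0.0193). It was the called member among the 5 tested, against a background of 2.52% of loci called lower. The call was lost in each of 4 fits that left out a library: without monomaker 2 (adjusted p = 0.0756), monomaker 3 (adjusted p = 0.0752), compound raceme 2 (adjusted p = 0.0942) or compound raceme 3 (adjusted p = 0.0895), with folds of -1.90 to -2.09 in those fits.

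Solyc08g067230, the other GLOBOSA-like gene, has no symbol in RefSeq and is called here by its identifier. Its levels were 1.94, 3.74 and 1.2 FPKM in monomaker 1 to 3, against 0.23, 0.14 and 0.15 FPKM in compound raceme 1 to 3. Again the cultivars did not overlap, and monomaker 2 stood above the other 2 monomaker libraries. The log2 fold change was -1.42 (SE 0.32, 95% interval -2.17 to -0.67), and with an adjusted p of 0.0639 the gene was not called. Without monomaker 2 its mean was below 1 FPKM and it was not tested.

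The DEFICIENS lineage has 2 tomato genes, TAP3 and TM6, and they had differences of opposite sign. TAP3, for which RefSeq gives the symbol DEF, stood at 1.28, 3.73 and 1.26 FPKM in monomaker 1 to 3. Compound raceme 1 and 3 list it at 0, and compound raceme 2 at 0.10 FPKM. No compound raceme library reached the lowest monomaker value, and monomaker 2 stood well above the other 2, as for Solyc08g067230. The log2 fold change was -1.49 (SE 0.34, 95% interval -2.30 to -0.68) and the adjusted p was 0.0671, so TAP3 was not called. It was called without monomaker 1 (-1.66, adjusted p = 0.0457), and without monomaker 2 its mean did not reach the 1 FPKM needed for the test.

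TM6, the paralogue that Arabidopsis lacks, measured 31.1, 41.0 and 36.2 FPKM in monomaker 1 to 3, against 49.5, 80.1 and 66.0 FPKM in compound raceme 1 to 3. Every compound raceme library was above every monomaker library. With means of 36.1 ± 4.96 and 65.2 ± 15.3 FPKM, the compound raceme mean was 1.81 times that of monomaker. The log2 fold change was 0.82 (SE 0.21, 95% interval 0.32 to 1.32), the adjusted p was 0.0842 and the gene was not called; it was called without both libraries numbered 1 (0.90, adjusted p = 0.0482). TM6 ranked above 82.1% to 87.3% of all loci in the monomaker libraries and above 89.7% to 94.4% in the compound raceme libraries.

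Because TM6 is so much more abundant, the summed level of the B class hides the other 3 genes. The sum over the 4 genes averaged 44.4 ± 7.85 FPKM over the monomaker libraries and 65.6 ± 15.3 FPKM over those of compound raceme. TM6 made up 83.6%, 77.7% and 83.7% of it in monomaker 1 to 3 and 99.1%, 99.6% and 99.2% in compound raceme 1 to 3. The sum of the other 3 genes came to 6.11, 11.8 and 7.05 FPKM in monomaker 1 to 3, against 0.47, 0.30 and 0.51 FPKM in compound raceme 1 to 3. These sums were not tested, since the genes were chosen with results known.

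For the C class, TAG1, the AGAMOUS counterpart, measured 2.79, 2.13 and 2.23 FPKM in monomaker 1 to 3, against 2.31, 2.2 and 3.10 FPKM in compound raceme 1 to 3. The cultivars overlapped, with the highest value in compound raceme 3 and the lowest in monomaker 2. The log2 fold change was 0.06 (SE 0.19, adjusted p = 0.866), and its 95% interval, -0.40 to 0.52, does not reach the fold of any of the 3 lower B class genes. The gene has 2 rows in the table, which were summed. The row that carries coordinates (chromosome 2, 41659488 to 41667297 on the minus strand of SL3.0) held 0.20 to 0.84 FPKM, and the other held 1.85 to 2.45 FPKM.

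TAGL1, an AGAMOUS relative known for its part in fruit development and ripening, measured 0.52, 1.36 and 0.06 FPKM in monomaker 1 to 3, against 0.92, 0.35 and 0.52 FPKM in compound raceme 1 to 3. The monomaker libraries held both the highest and the lowest of the 6 values. With a mean of 0.622 FPKM over all libraries it was below the 1 FPKM needed for the test. The difference of its means on the log2 scale was 0.02, with a two-sided exact permutation p of 1; the smallest p that 3 against 3 libraries can give is 0.1.

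The order of levels differed between the cultivars. In monomaker TM6 was followed by TPI, whose lowest value (2.89 FPKM) was just above the highest of TAG1 (2.79 FPKM). TPI overlapped Solyc08g067230 and TAP3, whose highest values were 3.74 and 3.73 FPKM. TAG1, Solyc08g067230 and TAP3 came next, and their ranges overlapped. TAGL1 came last, and its highest value overlapped the lower values of Solyc08g067230 and TAP3. In compound raceme TM6 was followed by TAG1 (2.2 to 3.10 FPKM), which lay above all others, and by TAGL1 (0.35 to 0.92 FPKM). TPI touched the range of TAGL1 (highest 0.36 FPKM) and overlapped both Solyc08g067230 and TAP3, while TAP3, at 0.10 FPKM or below, did not overlap Solyc08g067230. TPI thus lay above TAG1 in monomaker and below it in compound raceme, with no overlap in either cultivar.

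Non-overlap was common in these libraries. At 31.7% of tested loci the ranges of monomaker and compound raceme were apart, 15.3% lower and 16.4% higher in compound raceme. Among the members, 3 did not overlap with lower values and 1 with higher values. TPI, Solyc08g067230 and TAP3 reached a mean of 1 FPKM only through the monomaker libraries, so they could enter the test only by differing, and these counts support nothing by themselves.

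The authors' deposited table carries its own log2 ratio and q-value per row, from a test that the sources used here do not describe. Of the rows with a q-value, 10.2% lie below 0.05 in the authors' deposited table, 6.63% lower and 3.54% higher in compound raceme. TPI has a log2 ratio of -3.60 (q = 4.22e-08), TAP3 of -3.83 (q = 1.61e-05) and Solyc08g067230 of -3.21 (q = 1.1e-05) in the authors' deposited table. TM6 has 0.79 (q = 0.0448) and TAGL1 -0.11 (q = 0.965) in the authors' deposited table. The directions of the 4 B class genes were those of the limma fit, while the authors' deposited table puts all 4 below a q of 0.05 and limma called 1. These ratios are not on the log2(FPKM + 1) scale and are larger for the low genes.

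**Figure D2:**
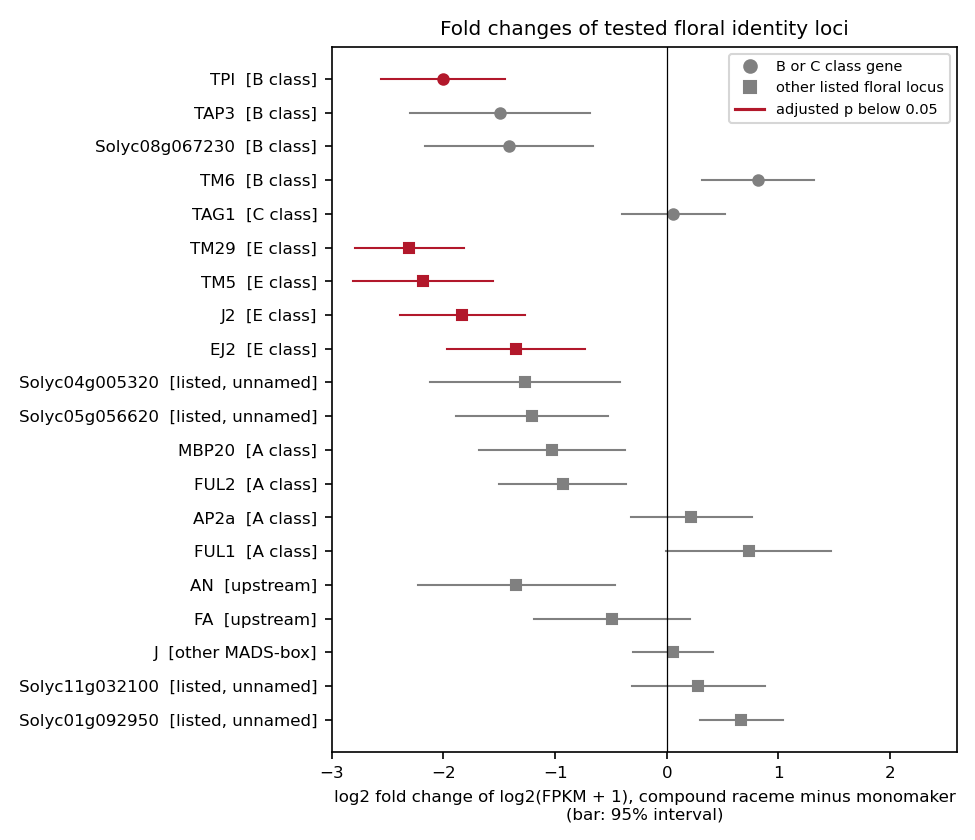
Log2 fold change of log2(FPKM + 1), compound raceme minus monomaker, with its 95% interval, for the 5 tested members (circles) and 15 tested loci of the list of other floral genes (squares). Red marks an adjusted p below 0.05 in limma. TPI, TM29, TM5, J2 and EJ2 are red and left of 0, TM6 lies right of 0 at 0.82, and TAG1 lies at 0.06.

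Other genes of floral identity were read from a list of 22 loci. Of these, 20 have rows in the expression table used here, 15 passed the 1 FPKM mean and 5 did not; the D class genes AGL11 and MBP3 have no row. The test called 4 lower and 0 higher in compound raceme, against backgrounds of 2.52% and 0.75%, and at an unadjusted p below 0.05 in limma there were 10, where 25.7% of all tested loci are. The median log2 fold change of the 15 was -1.03, against 0.04 over all tested loci. TM29, TM5, J2, Solyc04g005320 and AN, like the 3 lower B class genes, reached the 1 FPKM mean only through monomaker, so these counts and this median describe the list and support nothing by themselves.

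The called loci are 4 of the 5 tested loci listed as SEPALLATA-class partners: TM29 (Solyc02g089200, -2.31), TM5 (Solyc05g015750, -2.18), J2 (Solyc12g038510, -1.83) and EJ2 (Solyc03g114840, -1.35), with adjusted p of 0.0184 to 0.0454. The other, Solyc04g005320, was not called (-1.27, adjusted p = 0.101). Of the called loci, TM29 and EJ2 have 2 rows each, which were summed. In the authors' deposited table the TM29 row with coordinates has q = 1.72e-08, and its other row, whose values overlap, has q = 0.157. With rows fitted as deposited in limma, the larger row of TM29 was called (adjusted p = 0.0211) and that of EJ2 was not (adjusted p = 0.0752). The library profiles of the 4 called loci were not those of TAP3. TM29 and TM5 were highest in monomaker 1 and J2 and EJ2 in monomaker 3, and monomaker 2 was the lowest monomaker library for TM29, J2 and EJ2, whereas TAP3 and Solyc08g067230 were highest in monomaker 2. None of the 4 was called in the fits without monomaker 2, monomaker 3, compound raceme 2 or compound raceme 3. Genes of the A class and related, FUL2 (-0.93, adjusted p = 0.0846), MBP20 (-1.03, adjusted p = 0.0903), FUL1 (0.73, adjusted p = 0.197), AP2a (0.22, adjusted p = 0.570) and the unnamed Solyc05g056620 (-1.21, adjusted p = 0.0726), were not called and had folds of both signs. The authors' deposited table gives q = 0.0254 for FUL2, 0.0241 for MBP20 and 0.00166 for Solyc05g056620, against 0.243 for FUL1 and 0.756 for AP2a.

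AN (Solyc02g081670), the UFO counterpart, measured 1.84, 3.50 and 0.70 FPKM in monomaker 1 to 3, against 0.05, 0.10 and 0.14 FPKM in compound raceme 1 to 3. Its log2 fold change was -1.35 (SE 0.37, adjusted p = 0.0956), and it was not called. In the authors' deposited table AN has a log2 ratio of -3.29 (q = 0.000115). Within monomaker, AN was highest in number 2, as were Solyc08g067230, TAP3 and the cell division genes CDKB1 and CDKB2. The other listed cell division loci differed: Solyc10g080950 was highest in monomaker 2 (29.4 FPKM) and Solyc11g005090 in monomaker 3 (30.9 FPKM). AN and Solyc08g067230 were lowest in number 3, while TAP3 was nearly level in 1 and 3 (1.28 and 1.26 FPKM). FA (Solyc03g118160), the LEAFY counterpart, was highest in monomaker 1 and lowest in compound raceme 1, at 3.07 and 0.67 FPKM, and the cultivars overlapped (-0.49, SE 0.29, adjusted p = 0.330). The carpel genes CRCA and CRCB were below the test in both cultivars, and each had its highest value in monomaker 2, at 0.71 and 0.72 FPKM. WUS, the stem cell factor of meristems that acts upstream of AGAMOUS in Arabidopsis, was listed at 0 to 0.53 FPKM over all libraries.

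Likeness of profiles was measured as the root mean square difference of log2(FPKM + 1) over the 6 libraries, after each locus was centred on its own mean. Among the 18801 other tested loci the closest to Solyc08g067230 was AN, at 0.13, and the second was Solyc01g100280, also at 0.13; the spread of Solyc08g067230 about its own mean was 0.78 on the same scale. For TAP3 the closest loci were Solyc05g054480 (0.10) and Solyc04g055160 (0.12), Solyc08g067230 came 6th (0.15), and AN was the closest of the floral list (0.23, rank 44). The profile most like that of TPI in the floral list was J2 (0.29), which ranked only 75 among all other tested loci. The closest to TPI were Solyc02g092950 (0.16) and Solyc02g087980 (0.17). TM6 was closest to Solyc10g007150 (0.09) and Solyc04g076990 (0.10), and TAG1, which varied little, to Solyc05g006560 and Solyc09g064540 (0.04 each). In the floral list the closest to TM6 was Solyc01g092950 (0.25, rank 374) and the closest to TAG1 was J (0.18, rank 2714), so neither was a close match. The distance of J from TAG1 was larger than the spread of TAG1 about its own mean (0.14). With 6 libraries in 2 groups, loci that differ between the cultivars by a like amount come close on this measure, so it describes these libraries only.

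**Figure D3:**
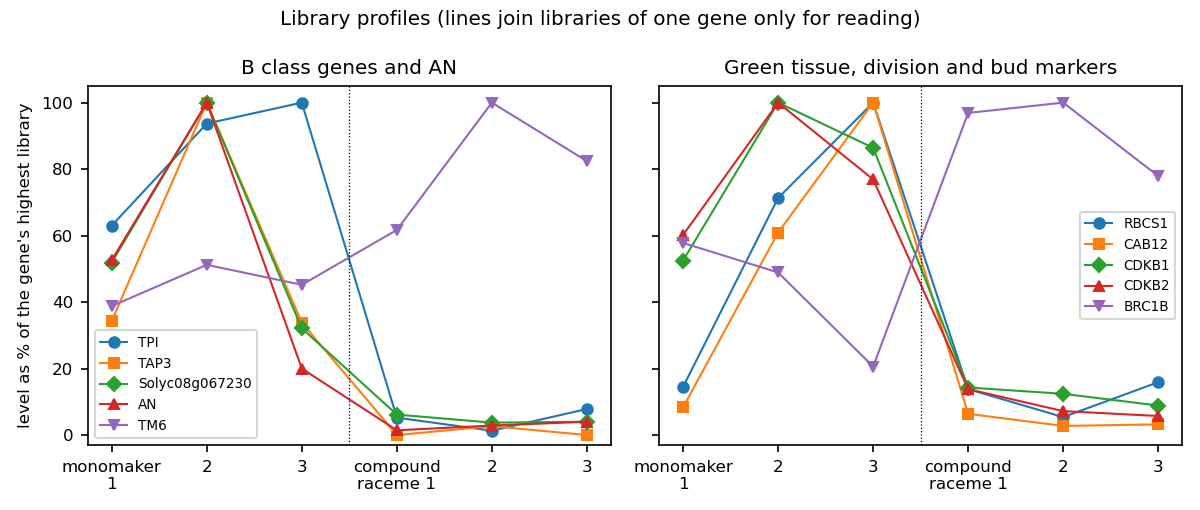
Level in each library as a percentage of the gene's highest library, for 4 B class genes with AN (left) and for marker genes of green tissue (RBCS1, CAB12), of cell division (CDKB1, CDKB2) and of buds (BRC1B) (right). Solyc08g067230, TAP3 and AN peak in monomaker 2, as do CDKB1 and CDKB2, and TPI is at 93.7% there. Of the listed division loci not drawn, Solyc10g080950 peaks in monomaker 2 and Solyc11g005090 in monomaker 3. RBCS1 and CAB12 in monomaker 1 are at 14.5% and 8.37%.

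For the labelled tissue, 6 listed bud and meristem loci were read. All had values in each cultivar, which does not by itself establish the tissue. The bud gene BRC1B ranged from 11.5 to 32.2 FPKM over the monomaker libraries and from 43.4 to 55.7 FPKM over those of compound raceme, and 0 of the 5 tested loci of that list were called (1 at an unadjusted p below 0.05 in limma, near the 25.7% of all tested loci). The meristem gene TKN1 ranged from 4.17 to 17.7 FPKM over the monomaker libraries, and compound raceme 1 to 3 gave 0.08, 10.8 and 9.81 FPKM. TKN2 was also lowest in compound raceme 1, at 2.08 FPKM, against 17.6 and 18.9 FPKM in compound raceme 2 and 3. Apart from BRC1B, the listed loci (BRC1A, LS, Solyc11g069030, TKN1 and TKN2) overlapped between the cultivars. The authors' deposited table gives q = 0.0262 for the row that holds most of BRC1B, and 0.452 or above for these other loci where a q-value is listed. In bulk buds, fewer cells of a type and less RNA per cell cannot be told apart.

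Among markers of other tissue, the cell division loci were lower together with the 3 B class genes, and the trichome locus was higher. The green tissue genes had lower means in compound raceme, though their sum overlapped between the cultivars. The summed level of 4 listed cell division loci, CDKB1 and CDKB2 among them, ran from 130 to 225 FPKM over the monomaker libraries and from 16.2 to 33.9 FPKM over those of compound raceme. All 4 were called lower, where 2.52% of all tested loci were, and none was at 0. For the green tissue genes RBCS1 and CAB12 the sum ran from 734 to 5357 FPKM in monomaker and from 270 to 761 FPKM in compound raceme. Of these genes 0 of 2 were called, where 3.27% of all tested loci were, and neither was at 0. RBCS1, the larger part of that sum, overlapped between the cultivars (-2.15, adjusted p = 0.153 in limma). CAB12 did not overlap and was lower in compound raceme (-3.23, adjusted p = 0.0946 in limma). In the authors' deposited table RBCS1 has q = 0.00341 and CAB12 has q = 7.3e-06. The summed level of the 20 floral list loci ran from 138 to 195 FPKM and from 131 to 165 FPKM; listed at 0 were J2, MBP10, RIN and WUS in compound raceme 1, TM5 in compound raceme 1 and 2, CRCA in compound raceme 3, and CRCB in monomaker 1 and compound raceme 3. Solyc01g105890, listed as a trichome marker, rose from a range of 16.3 to 23.9 FPKM to one of 35.6 to 69.9 FPKM (adjusted p = 0.0487), where 0.75% of all tested loci were called higher. Monomaker 1 held 734 FPKM of the green tissue sum, within the compound raceme range. Its CAB12 value, 60.4 FPKM, was above the highest of compound raceme, 46.0 FPKM. Its cell division sum, 130 FPKM, was above the compound raceme range too. In that library TPI, Solyc08g067230 and TAP3 were at 63.0%, 51.9% and 34.3% of their highest libraries, against at most 7.84% in any compound raceme library. The part of green, dividing and floral tissue in the B class values was not tested.

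**Figure D4:**
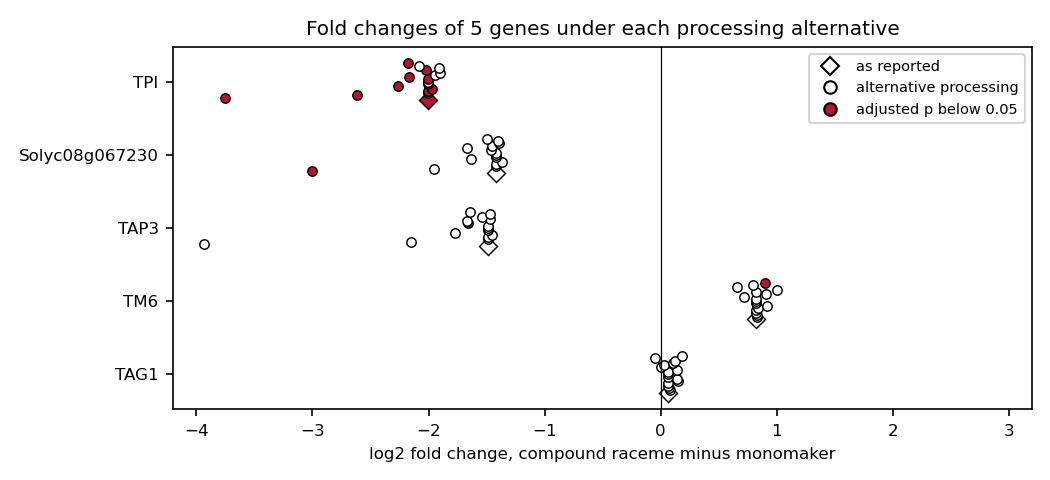
Log2 fold change, compound raceme minus monomaker, of the 5 tested members under each processing alternative (circles) and as reported (diamonds); red marks an adjusted p below 0.05 in limma. The points of TPI, Solyc08g067230 and TAP3 all lie below 0 and those of TM6 above 0, while those of TAG1 run from -0.05 to 0.19.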

How the data were processed

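RNA from axillary buds was extracted with Trizol and sequenced as BGI500 libraries, per the labels' protocols. The submitters' processing notes name, without roles, the tools DESeq2 (1.4.5), RSEM (1.2.12), Bowtie2 (2.2.5) and HISAT2 (2.0.4). The authors deposited FPKM values with 2 decimals for 6 libraries in 31139 rows, per the file headers. The authors' deposited log2 ratio, p-value and q-value per row are in the same table; the sources used here describe neither their test nor the annotation release nor any use of strand. Coordinates are on SL3.0.

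Rows of a locus were summed (25440 loci; 5699 had 2 rows), loci whose mean reached 1 FPKM were kept, and log2(FPKM + 1) was fitted with limma 3.58.1 (R 4.3.3, intensity trend) with cultivar as the only term. The test was tried on simulated data with known changes first. Because the table holds no counts, no count test, detection limit or counting interval was used. The fit was repeated under 16 alternatives.

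The members and lists were chosen with earlier results of these data known. The genes named are all 6 members, the called loci of the floral list, FA, AN, TM5 and TM29, and the closest profiles of each tested member; others are given as context. Class names of members are as assigned to the identifiers in the selection. Names of other genes were recalled for their identifiers and printed only where RefSeq (assembly SLM_r2.1) lists the symbol or a synonym on the same chromosome within 10% of its gene order. EJ2 and FA are exceptions, since RefSeq lists these loci as MADS1 and FALSIFLORA and not under the names used here. Of 41 loci, 33 had such a symbol and 32 passed; Solyc05g056620 did not and is unnamed.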

Additional observations from a re-analysis of the deposited data

How the results depend on the processing

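Over the 16 alternatives the folds of TPI and TM6 kept their sign, as did those of Solyc08g067230 and TAP3 over the 15 in which they could be tested. With a pseudocount of 0.1 the limma test called 2 members, TPI and Solyc08g067230 (-3.0, adjusted p = 0.0489), and TAP3 was just short (-3.94, adjusted p = 0.0506). TPI was called in 11 of 16 alternatives (adjusted p 0.00849 to 0.0942), and Solyc08g067230, TAP3 and TM6 in 1 each (adjusted p 0.0489 to 0.218, 0.0457 to 0.210 and 0.0482 to 0.275). TM29, TM5 and J2 were called in 11 of 16 and EJ2 in 5 of 16, all with negative folds throughout.

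Leaving out 1 library, or both numbered 1, gave 6 to 2041 called loci, 0 to 2 called members and 0 to 4 called loci of the floral list. The number of called loci was 6 when compound raceme 2 was left out, 7 for compound raceme 3, 8 for monomaker 2, 15 for monomaker 3, 603 for compound raceme 1, 2041 for monomaker 1 and 1921 for both numbered 1. Folds ran from -1.90 to -2.18 for TPI, -1.40 to -1.67 for Solyc08g067230, -1.47 to -1.67 for TAP3, 0.66 to 1.0 for TM6 and -0.051 to 0.19 for TAG1, which was negative without compound raceme 3. J ran from -0.040 to 0.18, negative without monomaker 2 (-0.025) or compound raceme 2, against 0.053. The cause was not tested; these fits also hold fewer libraries.

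With the replicate number as a replicate block, limma called 0 loci (4676 at an unadjusted p below 0.05), 0 members and 0 of the floral list, with TPI at -2.0 (adjusted p = 0.0931). The labels do not say that the numbers pair the libraries. Deviations of same-numbered libraries correlated across loci at 0.03, 0.06 and 0.10, and 3 of 6 libraries correlated best with their own number. On log2(FPKM + 1) levels, monomaker 1 correlated at 0.952 with compound raceme 1, against 0.935 and 0.917 with monomaker 2 and 3. With 3 libraries per cultivar, these correlations cannot decide whether the numbers pair the libraries. Lower loci made up 77.0% of the 614 calls and 67.0% of 661 with quantile normalization. The share was 0% of 6 calls without compound raceme 2 and 0% of 7 without compound raceme 3. It was 12.5% of 8 calls without monomaker 2 and 46.7% of 15 without monomaker 3. So few calls say little about direction. Lower loci made up 70.0% of 603 calls without compound raceme 1 and 64.0% of 2041 without monomaker 1. TAGL1 could be tested only with looser filters (adjusted p of 0.978 and 0.984). Without counts, the DESeq2 alternative was not run, and depth cannot be set against the values near 0.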

Other observations

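The chromosomal surroundings of the members were looked at after their values had been seen. For each member the 5 tested loci before and the 5 after it in identifier order were taken. None of the 10 neighbours of TPI, of Solyc08g067230 or of TAG1 was called, and 1 of 10 was called, with a lower value in compound raceme, for TAP3, TM6 and TAGL1 each. Over all tested loci 3.27% were called and 2.52% were called lower, so such small counts out of 10 say nothing about the surroundings. Median log2 fold changes of the 10 neighbours were -0.07 for TPI, -0.05 for Solyc08g067230, -0.20 for TAP3 and 0.09 for TM6, against folds of -2.0, -1.42, -1.49 and 0.82 for the genes themselves. The neighbours' folds ran from -1.04 to 0.44 at Solyc08g067230 and from -1.44 to 0.52 at TAP3. At TM6 they ran from -1.16 to 1.65, beyond the fold of TM6 itself.

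MBP10 (Solyc02g065730), a FRUITFULL-clade gene below the test, measured 0.96, 0.73 and 1.33 FPKM in monomaker 1 to 3, while compound raceme 1 to 3 list 0, 0.18 and 0.13 FPKM. The ripening factor RIN (Solyc05g012020), a SEPALLATA relative, was listed at 0.26 FPKM or below in all libraries.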
